A study of Mus musculus with 594 samples.

Results

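A list of 41 genes of the DNA replication machinery was taken by name, from the genes that license origins to the enzymes that supply deoxynucleotides, and 40 of them were found among the 11807 genes of the table (Chaf1a was not found there). The rule that chose them used no measured value, but earlier results of these data were known when the list was made. Each gene was represented by 1 probe set, the one with the highest mean over all arrays, and all levels are given as log2 intensities. The study used 2 mouse lines. alpha-TC1 cells make glucagon and beta-TC3 cells make insulin, and both derive from tumours of transgenic mice in which the glucagon promoter or the insulin promoter drives the SV40 large T antigen, a protein that binds the retinoblastoma protein. All groups, DMSO included, share this background.

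Each line was treated with 29 compounds or with DMSO alone for 1, 6 or 24 h. Of these compounds 13 are known inhibitors of histone deacetylases (HDACs). The hydroxamic acids were trichostatin A at 0.22 µM, SAHA at 1.3 µM, LBH-589 at 0.015 µM, PXD101 at 2.4 µM, ITF-2357 at 10 µM, CRA-024781 at 1.5 µM, pyroxamide at 10 µM and scriptaid at 2.0 µM. The ortho-amino anilides were MS-275 at 2.9 µM, CI-994 at 10 µM and MGCD-0103 at 1.1 µM, and the cyclic tetrapeptides were apicidin at 1.4 µM and HC-toxin at 0.12 µM. Chaetocin at 1.7 µM and BIX-01294 at 10 µM are known as lysine methyltransferase inhibitors, and AMI-1 at 10 µM as an arginine methyltransferase inhibitor. 5-azadeoxycytidine, zebuarine (spelled as in the labels) and RG-0108, each at 10 µM, are known as inhibitors of DNA methylation. Another 10 compounds carried only code names, namely BRD5298, BRD8451 and BRD9773 at 10 µM, BRD6929 at 0.91 µM, and BRD-A94377914, BRD-K17311666, BRD-K22912318, BRD-K62233722, BRD-K90919562 and BRD-K92415738 at 3.0, 4.3, 5.0, 3.7, 4.1 and 3.2 µM. Because each compound was given at 1 dose and the doses differ, compounds are set side by side below, and tests between them were made only for those given at 10 µM.

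DNA replication is prepared in G1, when the origin recognition complex with Cdc6 and Cdt1 loads the ring of Mcm2 to Mcm7 on DNA. It starts in S phase, when Cdc45 and the GINS complex activate this helicase and polymerases alpha, delta and epsilon copy the strands, held by the sliding clamp Pcna that replication factor C loads. Many of these genes are transcribed under E2F factors, which the retinoblastoma protein restrains, so their RNA is commonly taken as a sign of cells that enter or pass S phase. HDAC inhibitors are known to arrest many cell lines in G1 and to lower such transcripts.

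The data comprise 594 arrays, 299 of alpha-TC1 and 295 of beta-TC3, 76 of them with DMSO. Each of the 174 combinations of compound, line and time was compared with 10 to 14 DMSO arrays of the same line and time. Of these combinations 168 had 3 arrays, 5 had 2 and 1 had 4. The groups of 2 were SAHA, CI-994, scriptaid, BRD-K92415738 and BRD-K62233722 and the group of 4 was chaetocin, all in alpha-TC1 at 24 h. The labels do not say that arrays of a group came from separate cultures, so p-values measure only the spread between arrays, which may be technical. In DMSO the hormone genes fitted the labelled lines, with Gcg, the glucagon gene, at 11.9 to 12.88 in alpha-TC1 and 6.18 to 10.67 in beta-TC3, and Ins2, an insulin gene, at 3.31 to 7.75 and 13.01 to 13.49. Irx1, Irx2 and Pou3f4 were also higher in alpha-TC1, and Pdx1 and G6pc2 in beta-TC3, without overlap. G6pc2, a beta cell marker, still read 7.4 to 9.31 in alpha-TC1. The beta cell markers Nkx6-1 (5.04 to 6.3 and 6.27 to 7.91) and Slc2a2 (2.56 to 3.21 and 2.64 to 3.45) overlapped between the lines. The mean level of 8 markers of other cell types lay below its DMSO range (3.49 to 3.65) in alpha-TC1 at 6 h with BIX-01294, BRD-A94377914, apicidin and pyroxamide (3.35 to 3.45 over these arrays) and at 24 h (3.41 to 3.67) with PXD101 and BRD9773 (3.33 to 3.38), and its part in the results was not tested. In total RNA of whole cultures, fewer cells in S phase and less RNA per cell cannot be told apart. Precision is set by how many arrays a group has.

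A gene is called changed where limma gave a Benjamini-Hochberg adjusted p under 0.05 over all 11807 genes, with batch in the model. A change is the log2 level with a compound minus that with DMSO (−1 is 2-fold lower), and errors are standard errors (SE) unless stated. Comparisons within 1 line and time share their DMSO arrays, and are therefore not independent of each other.

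The sequences upstream of 5 members are shown because the results below turn on these genes. Tk1 and Rrm2, which serve nucleotide supply, fell most under HDAC inhibitors, and Mcm7 fell with them. Of the genes that license origins, Orc1 rose at 6 h under the hydroxamic acids and cyclic tetrapeptides, and Cdc6 rose under chaetocin. Each is the 250 bases before the transcript start in RefSeq's GRCm38.p6 annotation, 5′ to 3′ on the gene's strand, with capitals for an E2F-type motif (TTTCCCGC, TTTCGCGC, TTTGGCGC or TTTGCCGC) or a CCAAT box, both searched on either strand.
Tk1, chr11:117826015-117826264, minus strand: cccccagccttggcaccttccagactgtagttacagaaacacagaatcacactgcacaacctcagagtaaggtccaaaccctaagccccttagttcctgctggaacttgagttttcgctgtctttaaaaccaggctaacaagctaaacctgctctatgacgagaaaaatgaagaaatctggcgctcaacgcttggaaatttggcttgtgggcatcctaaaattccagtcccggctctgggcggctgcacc
Rrm2, chr12:24708004-24708253, plus strand: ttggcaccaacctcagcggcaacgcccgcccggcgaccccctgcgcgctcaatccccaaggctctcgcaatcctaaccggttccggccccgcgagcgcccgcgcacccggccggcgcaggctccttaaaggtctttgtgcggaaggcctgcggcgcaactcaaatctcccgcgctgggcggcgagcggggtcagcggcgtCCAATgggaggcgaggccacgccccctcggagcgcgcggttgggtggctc
Mcm7, chr5:138171884-138172133, minus strand: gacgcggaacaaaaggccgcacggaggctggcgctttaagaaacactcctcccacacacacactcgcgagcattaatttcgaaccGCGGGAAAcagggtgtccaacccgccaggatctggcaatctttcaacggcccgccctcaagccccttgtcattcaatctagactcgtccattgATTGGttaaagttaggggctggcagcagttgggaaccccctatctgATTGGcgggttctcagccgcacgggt
Orc1, chr4:108579204-108579453, plus strand: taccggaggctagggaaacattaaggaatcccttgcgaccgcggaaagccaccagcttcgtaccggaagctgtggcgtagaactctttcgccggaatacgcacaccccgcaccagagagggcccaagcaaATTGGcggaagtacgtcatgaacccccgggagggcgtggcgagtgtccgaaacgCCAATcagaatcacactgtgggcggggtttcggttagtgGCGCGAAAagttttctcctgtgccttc
Cdc6, chr11:98907901-98908150, plus strand: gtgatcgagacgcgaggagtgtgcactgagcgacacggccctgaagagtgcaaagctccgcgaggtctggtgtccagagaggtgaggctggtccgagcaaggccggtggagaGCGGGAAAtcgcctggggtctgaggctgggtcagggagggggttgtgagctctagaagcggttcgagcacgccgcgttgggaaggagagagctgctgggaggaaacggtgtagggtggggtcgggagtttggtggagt
Among the 34 of 40 members with an entry in that table, 7 (20.6%) held an E2F-type motif in this window, against 583 of 27025 genes (2.16%) and against 309 of the 9430 genes with an entry that were also measured (3.28%). The 7 were Cdc6, Mcm5, Mcm6, Mcm7, Orc1, Pola1 and Rfc3. A CCAAT box stood in 21 of the 34 members (61.8%), against 37.5% of all promoters in the table and 40.2% of those of measured genes. A gene was counted where any of its entries held the motif. Tk1 held neither motif in this window and Rrm2 held 1 CCAAT box, Orc1 held 1 E2F-type motif and 2 CCAAT boxes, Mcm7 1 and 2 in the entry shown, and Cdc6 1 E2F-type motif only. Mcm7 has 2 entries in that annotation. The one shown was picked for holding more E2F-type motifs, and the other held none. A match describes the letters and is not shown to be a bound site.

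Without a compound the lines differed in the level of most members. In DMSO at 24 h, 10 members were higher and 19 lower in alpha-TC1 than in beta-TC3 (59.2% of all genes differed between the lines). Orc2, an origin recognition subunit, ran from 8.43 to 8.81 (median 8.67) in alpha-TC1 and from 7.0 to 7.35 (median 7.06) in beta-TC3, without overlap, a difference of 1.56. Pola2, the accessory subunit of polymerase alpha, was the other way, at 6.39 to 7.08 (median 6.80) in alpha-TC1 and 7.65 to 8.09 (median 7.86) in beta-TC3, a difference of −1.07. Tyms, thymidylate synthase, differed by −1.36 and Dut, the dUTPase that keeps uracil out of DNA, by 1.17. Thymidine kinase, Tk1, overlapped between the lines, at 6.94 to 8.09 and 7.28 to 8.15. At 1 h the counts were 15 higher and 17 lower (59.6% of all genes differed) and at 6 h 9 and 19 (59.4%). Within the DMSO arrays 0 to 5 members differed between times. Between 1 and 24 h limma called no member in alpha-TC1, where 3 of the 40 had an unadjusted p under 0.05 (5.06% of genes differed), and 4 rose in beta-TC3 (10.3% of genes differed), these being Gmnn by 0.21, Mcm10 by 0.18, Cdc45 by 0.23 and Rpa3 by 0.18. From 6 to 24 h 4 rose in alpha-TC1 (2.90% of genes differed), Pola1 by 0.34, Pole2 by 0.30, Gins1 by 0.27 and Rpa3 by 0.17, and 5 in beta-TC3 (5.83%), Pola1 by 0.31, Gmnn by 0.24, Gins1 by 0.22, Chaf1b by 0.20 and Rpa3 by 0.16.

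After 1 h the 40 members stood close to DMSO with most compounds. With CRA-024781 in beta-TC3 the members' median by array was −0.44, −0.19 and 0.01, against −0.11 to 0.09 in the DMSO arrays. The medians of the 40 changes ran from −0.09 to 0.05 over the 29 compounds in alpha-TC1 and from −0.18 to 0.07 in beta-TC3, the lowest becoming −0.10 with the array plate as a random block. Here and below, the plate was inferred from the HTA number in the sample titles, which do not call it a plate. The 1 call among the members was Mcm4, a helicase subunit, under CRA-024781 in beta-TC3, where 0.288% of all genes fell. Its arrays read 8.39, 8.62 and 8.67 against DMSO at 8.52 to 9.08 (median 8.81), so the groups overlapped, and the fall was 0.34 ± 0.08 (adjusted p = 0.0276).

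At 6 h the median change of the members was below 0 with all 13 HDAC inhibitors in both lines. In the joint fit, the change in alpha-TC1 minus that in beta-TC3 had a median over the members of 0.08 to 0.33 with 10 of them, and of −0.06 with CI-994, −0.03 with MS-275 and −0.01 with pyroxamide. Under the 10 inhibitors other than the anilides, 24 to 29 of the 40 members fell in beta-TC3 and 1 to 4 rose, while 13.4% to 20.1% of all genes fell and 15.7% to 22.4% rose. The medians of the members lay between −0.61 and −0.41 there, against medians of all genes between −0.02 and 0.02. In alpha-TC1 14 to 24 members fell and 4 to 6 rose (13.5% to 18.5% and 16.9% to 21.4% of all genes), with medians from −0.33 to −0.14. Apicidin in beta-TC3 gave the most calls, 29 falls and 4 rises (17.3% and 18.7% of all genes called). In 24 of the members all 3 arrays lay below every DMSO array, a count that was not made over all genes. By single arrays, the members' median against DMSO ran from −0.76 to −0.34 over the beta-TC3 arrays of these 10 compounds, below all 10 DMSO arrays, which ran from −0.08 to 0.06. In alpha-TC1 it ran from −0.50 to −0.10 against −0.25 to 0.15 in 14 DMSO arrays, so the groups overlapped. Set only against DMSO arrays of their own batch, the ranges were −0.82 to −0.34 and −0.55 to −0.04.

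By compound at 6 h in beta-TC3, ITF-2357 lowered 28 members and raised 3 (20.1% and 21.6% of all genes), trichostatin A 27 and 2 (19.4% and 22.4%), SAHA 27 and 2 (16.4% and 19.1%), HC-toxin 27 and 2 (14.1% and 16.1%) and LBH-589 26 and 2 (13.4% and 16.3%). Pyroxamide lowered 26 and raised 3 (16.1% and 18.0%), CRA-024781 25 and 3 (17.9% and 20.5%), scriptaid 25 and 1 (14.7% and 15.7%) and PXD101 24 and 2 (19.4% and 20.5%). In beta-TC3 the falls thus outnumbered the rises among the members with each of them, while among all genes the rises were the more numerous. In alpha-TC1 ITF-2357 lowered 24 and raised 5 (17.4% and 20.3%), pyroxamide 21 and 6 (18.5% and 21.4%), PXD101 19 and 5 (17.1% and 19.1%), scriptaid 19 and 6 (13.7% and 17.7%) and SAHA 18 and 5 (13.5% and 17.6%). The counts were 16 and 4 for apicidin (13.9% and 17.0%), 16 and 6 for CRA-024781 (15.2% and 19.7%), 16 and 6 for trichostatin A (17.4% and 20.2%), 15 and 5 for HC-toxin (15.2% and 17.7%) and 14 and 4 for LBH-589 (13.6% and 16.9%). Some counts in alpha-TC1 were lower with a replicate number left out. It was left out of all compounds at once, which leaves fewer arrays in the groups and for their shared spread. Without replicate 1 the members called under ITF-2357 went from 29 to 17, under scriptaid from 25 to 15, under trichostatin A from 22 to 14 (14 also without replicate 3) and under apicidin from 20 to 11 (13 without replicate 2).

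**Figure D1:**
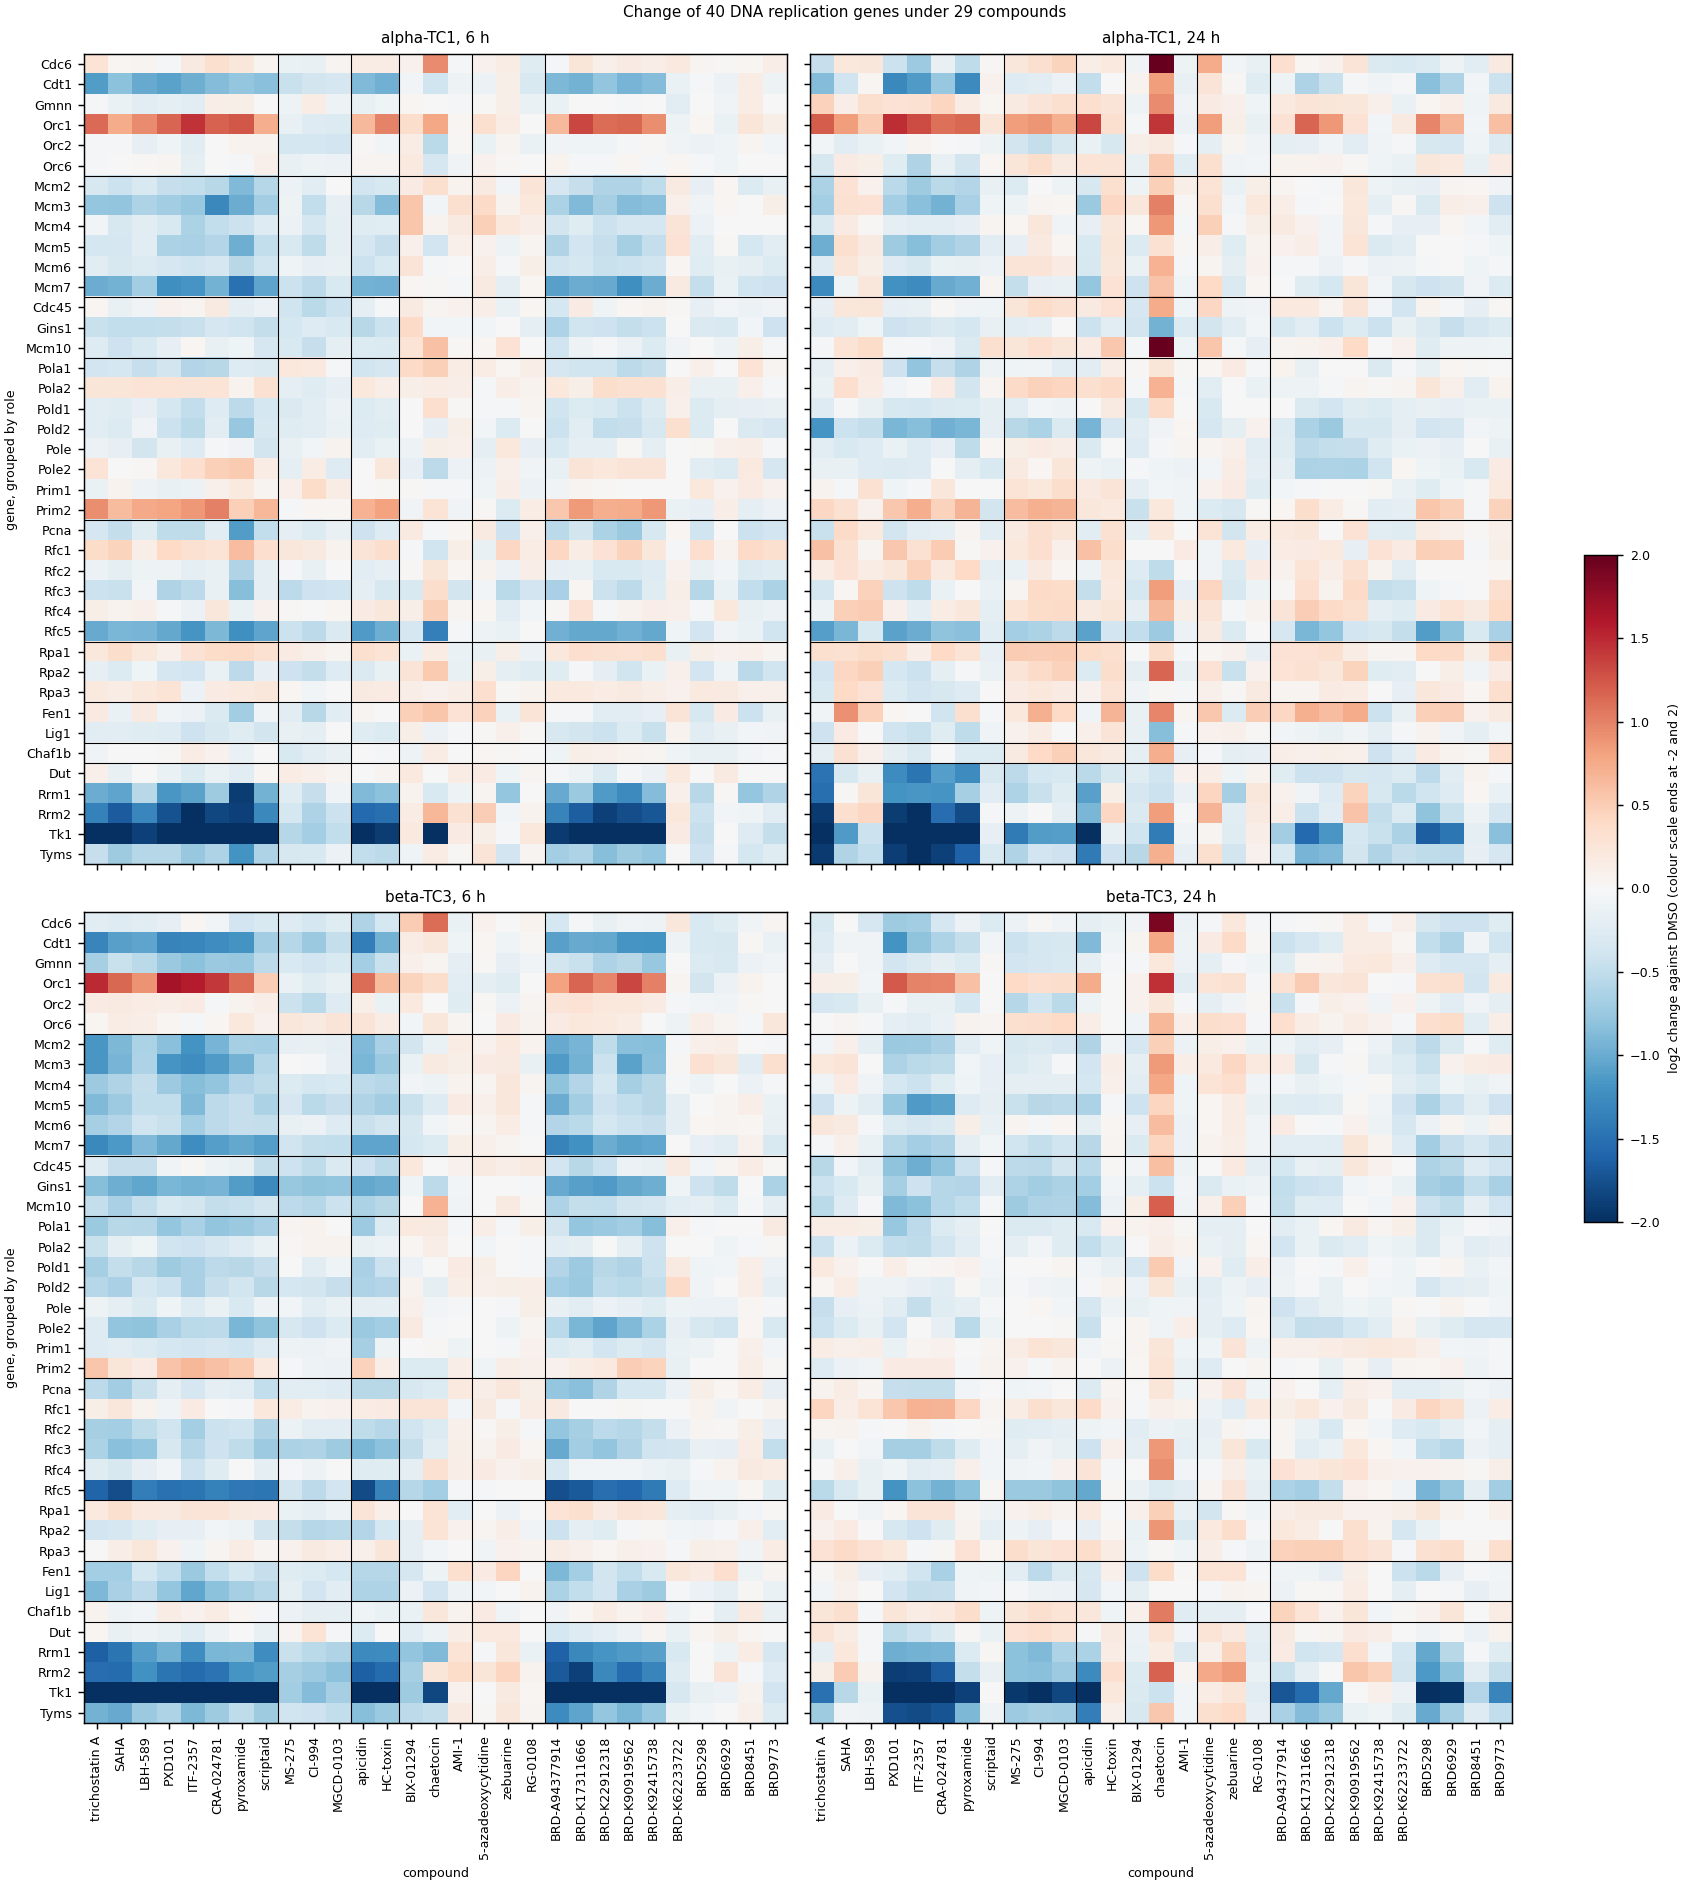
Log2 change of each of the 40 members (rows, ordered by role) against DMSO of the same line and time for each compound (columns), with a colour scale from lower to higher than DMSO. Under the hydroxamic acids and cyclic tetrapeptides at 6 h, 24 to 29 rows fell in beta-TC3 and 14 to 24 in alpha-TC1, Orc1 rises there, and chaetocin at 24 h shows 23 rises in each line.

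**Figure D2:**
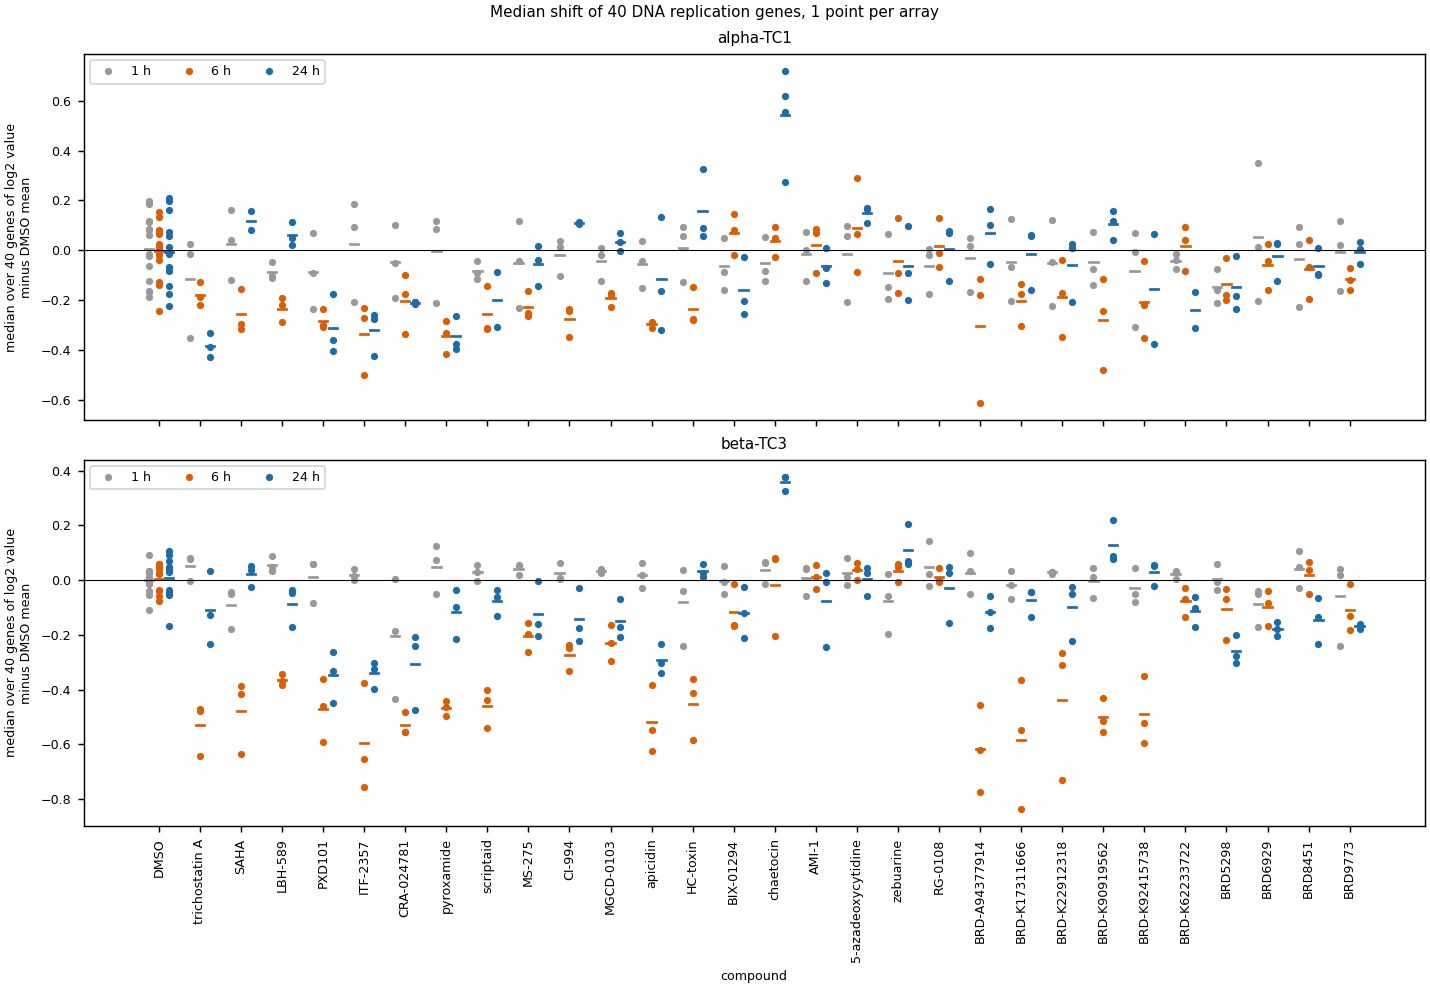
Median over the 40 members of the log2 level minus the DMSO mean, 1 point per array, by compound, line and time, with the DMSO arrays as their own column. At 6 h the beta-TC3 arrays of the 10 HDAC inhibitors other than anilides lie between −0.76 and −0.34 and its DMSO arrays between −0.08 and 0.06.

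Among the genes that license origins, Orc1 and Cdt1 moved apart at 6 h. Cdt1, the loading factor, fell with all 13 HDAC inhibitors in both lines, with changes of −1.12 to −0.33 in alpha-TC1 and −1.38 to −0.47 in beta-TC3. Under ITF-2357 in beta-TC3 its arrays read 9.39, 9.26 and 9.13 against DMSO at 10.05 to 10.72 (median 10.52), all 3 below, a change of −1.30. Orc1, the largest subunit of the origin recognition complex, rose with 10 of the 13 in both lines, and the 3 that gave no call were the anilides. Under PXD101 in beta-TC3 its arrays read 6.26, 5.79 and 6.16 against DMSO at 3.96 to 4.61 (median 4.42), without overlap, a rise of 1.66 ± 0.14 (adjusted p = 5.11e-17), or 3.16-fold. In alpha-TC1 ITF-2357 gave 5.38, 5.62 and 5.50 against 3.48 to 4.35 (median 4.08), again without overlap, a rise of 1.45 ± 0.15 (adjusted p = 2.76e-13). Orc1 has 1 probe set and a low level in DMSO, so its change rests on that probe set.

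The other licensing genes were called with fewer inhibitors, or in 1 line. Orc2 fell with 4 inhibitors in alpha-TC1 and 3 in beta-TC3, among them the 3 anilides in both lines, and its probe sets did not all move alike. Orc6, the small subunit, fell with 1 in alpha-TC1 and rose with 4 in beta-TC3. Cdc6, which recruits Cdt1 and the helicase, was called with none of the 13 in alpha-TC1 (changes −0.15 to 0.33) and fell with 4 in beta-TC3 (−0.60 to 0.04). Gmnn, geminin, the inhibitor of Cdt1, fell with all 13 in beta-TC3 (−0.83 to −0.31) and with none in alpha-TC1. Its arrays under ITF-2357 read 8.39, 8.01 and 8.11 in beta-TC3 against DMSO at 8.57 to 9.21 (median 8.91), all below, a change of −0.83 ± 0.09 (adjusted p = 7.16e-13). In alpha-TC1 they read 8.79, 8.77 and 8.79 against 8.70 to 9.19 (median 9.03), within the DMSO range, a change of −0.21 (adjusted p = 0.0931).

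The helicase genes fell nearly as a block at 6 h. Mcm7 fell with 12 of 13 inhibitors in alpha-TC1 and all 13 in beta-TC3, Mcm2 with 10 and 10, Mcm3 with 11 and 10, Mcm4 with 7 and 13, Mcm5 with 8 and 12, and Mcm6 with 10 and 11, and no helicase subunit rose with any. The deepest changes were −1.49 in alpha-TC1 and −1.29 in beta-TC3 for Mcm7, and −1.28 and −1.24 for Mcm3. Mcm7 under ITF-2357 in alpha-TC1 read 7.82, 8.43 and 8.31 against DMSO at 8.91 to 9.78 (median 9.43), and Mcm3 in beta-TC3 read 6.72, 6.55 and 6.75 against 7.35 to 8.29 (median 8.11). In both cases every array with the compound was below every DMSO array. Mcm2 in beta-TC3 read 8.67, 8.96 and 9.02 against 9.88 to 10.47 (median 10.19), also without overlap, a change of −1.20.

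Of the genes that activate the helicase, Gins1, a subunit of GINS, fell with all 13 inhibitors in both lines. Its changes were −0.56 to −0.25 in alpha-TC1 and −1.27 to −0.76 in beta-TC3, the anilides included. CI-994 in beta-TC3 gave 6.83, 6.81 and 6.81 against DMSO at 7.52 to 7.85 (median 7.70), without overlap, a change of −0.81 (adjusted p = 1.73e-10). Mcm10, which helps to separate the paired helicases of an origin, fell with 8 in alpha-TC1 and all 13 in beta-TC3 (−0.66 to −0.31). Cdc45 fell with 3 and 7.

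Polymerase and primase genes divided. The catalytic subunit of polymerase delta, Pold1, fell with 8 inhibitors in alpha-TC1 and 10 in beta-TC3 (deepest −0.52 and −0.72), its subunit Pold2 with 4 and 13, and the catalytic subunit of polymerase alpha, Pola1, with 8 and 10 (deepest −0.59 and −0.79). The large primase subunit, Prim2, rose instead, with 10 inhibitors in alpha-TC1 and 6 in beta-TC3, by up to 1.01 and 0.66. Under ITF-2357 Prim2 read 8.89, 9.0 and 8.89 against DMSO at 7.76 to 8.32 (median 8.14) in alpha-TC1 and 7.53, 7.88 and 7.93 against 6.81 to 7.31 (median 7.18) in beta-TC3, with no overlap in either line. Pole2, a subunit of polymerase epsilon, had 4 rises in alpha-TC1 and 12 falls in beta-TC3. Pyroxamide gave Pole2 arrays of 7.47, 6.96 and 7.72 in beta-TC3, all below DMSO at 7.81 to 8.39 (median 8.26), a change of −0.92 (adjusted p = 2.44e-10). Pola2 had 7 rises in alpha-TC1 and 5 falls in beta-TC3, and Prim1, the catalytic primase subunit, 1 rise and 7 falls. Pole, the catalytic subunit of polymerase epsilon, fell with 3 and 5.

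The clamp loader genes fell by unequal amounts. Rfc5 fell with 12 inhibitors in alpha-TC1 (−1.23 to −0.29) and 13 in beta-TC3 (−1.78 to −0.37), Rfc3 with 6 and 12 and Rfc2 with 1 and 10, while Rfc4 was called in none and 2. Rfc1, the large subunit, rose with 6 in alpha-TC1. ITF-2357 gave Rfc5 levels of 6.71, 6.85 and 6.91 in beta-TC3 against DMSO at 8.02 to 8.50 (median 8.36), without overlap, a change of −1.47. Pcna, the clamp itself, fell with 6 and 7, and ITF-2357 gave 11.70, 12.26 and 12.23 in beta-TC3 against 12.50 to 12.67 (median 12.57), all below, a change of −0.34.

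Among the proteins that bind single-stranded DNA, Rpa2 fell with 4 and 7 inhibitors, whereas Rpa1 rose with 7 and 4 (up to 0.38 and 0.33) and Rpa3 with 8 and 2. Lig1, the ligase of the lagging strand, fell with 10 and 11 (deepest −0.41 and −1.04). In beta-TC3 ITF-2357 gave Lig1 levels of 6.69, 6.41 and 6.80 against 7.48 to 7.79 (median 7.61), without overlap. Fen1, the flap nuclease, fell with 1 and 7, and Chaf1b, which loads histones behind the fork, with 1 and none.

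The deepest falls were in nucleotide supply. Tk1 fell with 12 of 13 inhibitors in alpha-TC1 (−2.60 to −0.50) and all 13 in beta-TC3 (−3.03 to −0.67). With trichostatin A in beta-TC3 the arrays read 4.99, 5.15 and 4.76 against DMSO at 7.52 to 8.18 (median 7.90), far below, a fall to 8.19-fold lower (SE 0.18 on the log2 scale, adjusted p = 2.76e-23). With ITF-2357 in alpha-TC1 they read 4.84, 5.35 and 5.39 against 7.30 to 8.10 (median 7.77), a change of −2.39 ± 0.19 (adjusted p = 5.53e-18). Rrm2, the regulated subunit of ribonucleotide reductase, fell with 12 and 13. Its arrays under ITF-2357 in alpha-TC1 read 7.48, 7.94 and 7.69 against 9.34 to 10.13 (median 9.70), a change of −2.0 ± 0.14 (adjusted p = 5.58e-21), or 4.01-fold lower. Rrm1, the catalytic subunit, fell with 9 and 10 (deepest −1.89 and −1.63) and Tyms with 10 and 13, while Dut fell with 1 in each line. Tk1 and Orc1 have a single probe set each.

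**Figure D3:**
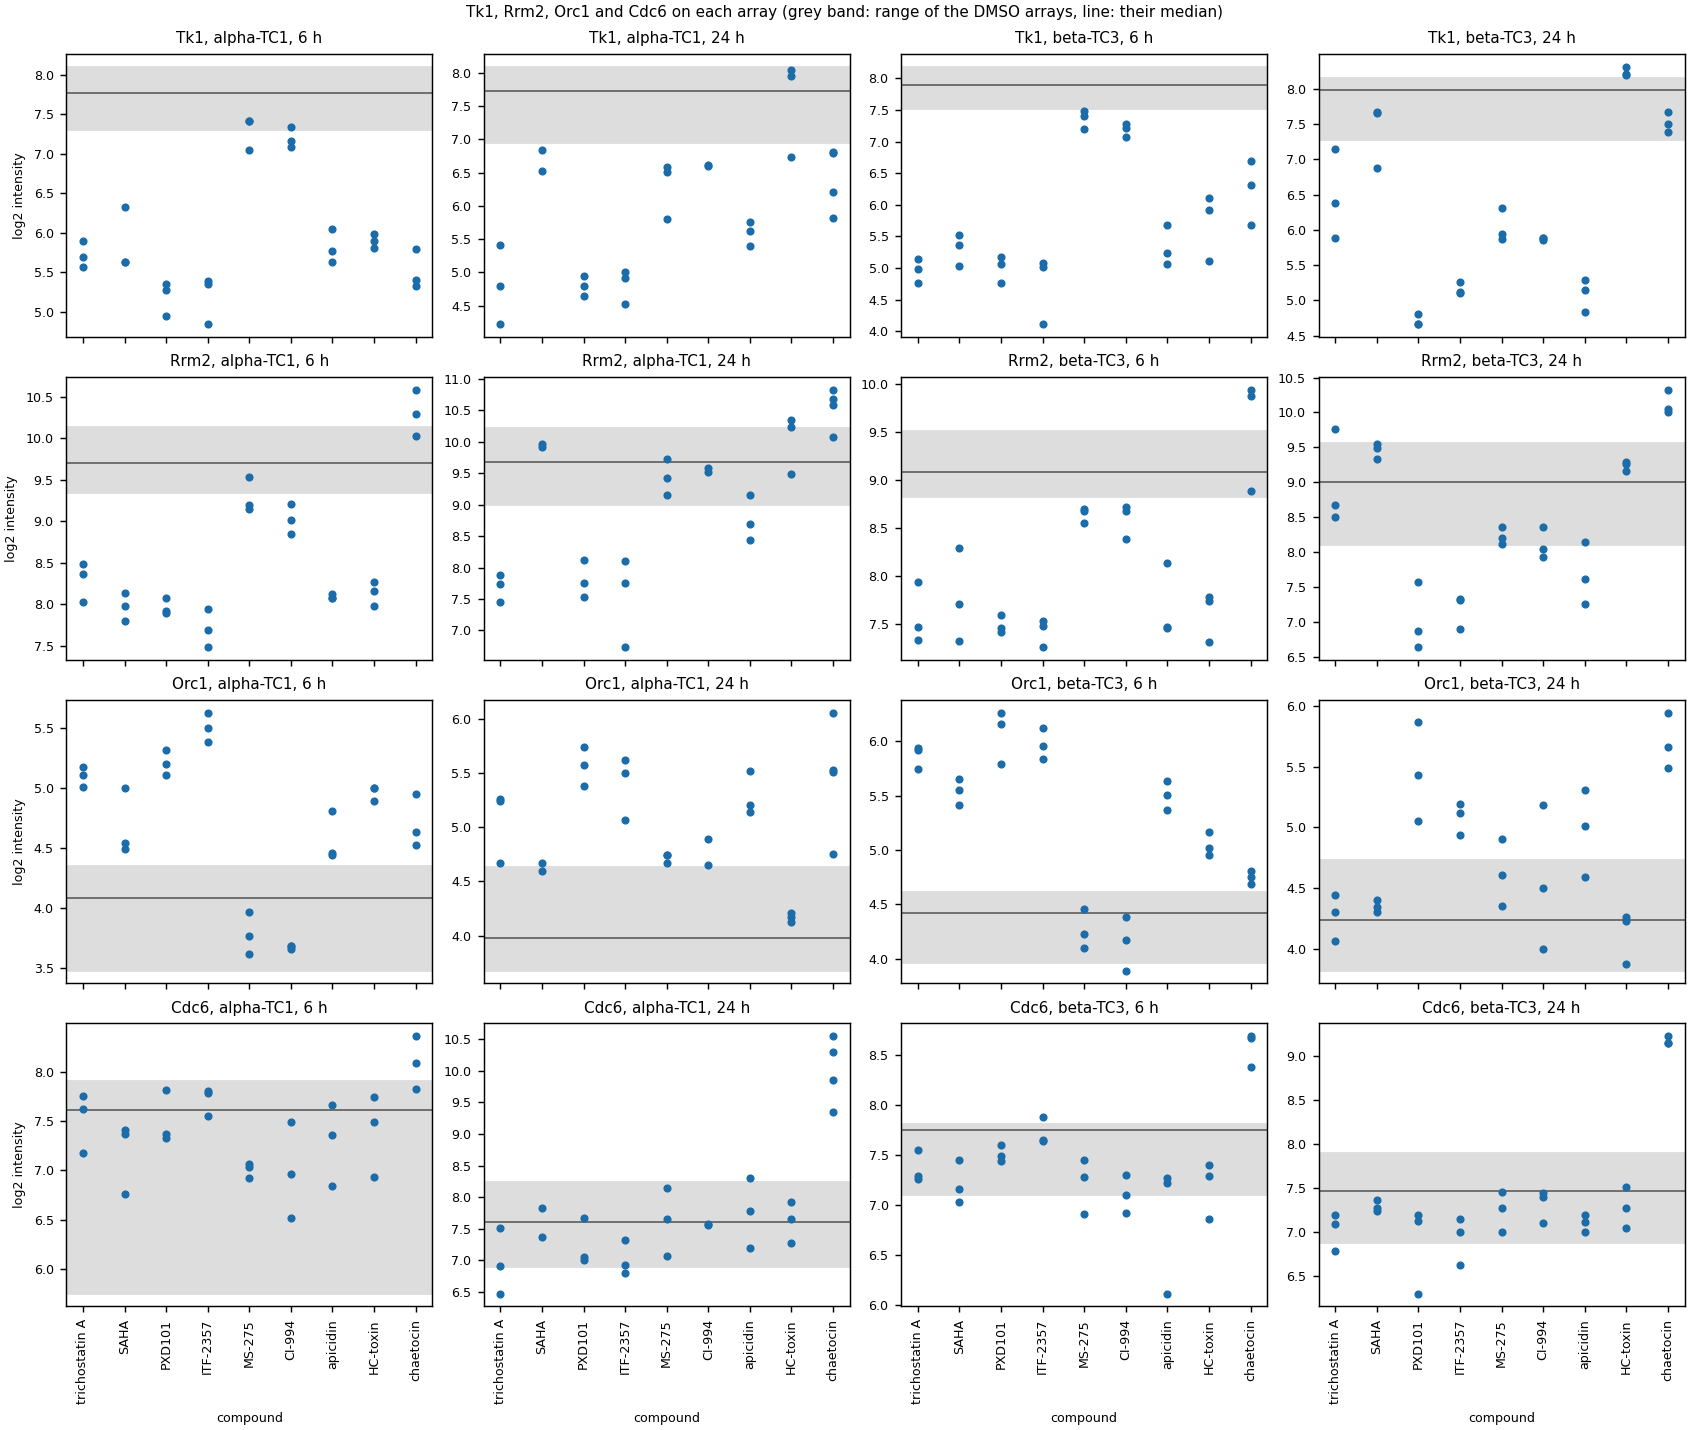
Log2 level of Tk1, Rrm2, Orc1 and Cdc6 on each array under 9 compounds and DMSO, by line and time. Tk1 and Rrm2 drop and Orc1 rises at 6 h under trichostatin A, SAHA, PXD101, ITF-2357, apicidin and HC-toxin, and Cdc6 rises under chaetocin, to 9.15, 9.23 and 9.15 in beta-TC3 at 24 h.

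Fewer members were called with the 3 anilides at 6 h than with each of the other 10 HDAC inhibitors, at doses that differ. In beta-TC3 CI-994 lowered 20 members and raised none (14.1% and 10.6% of all genes), MGCD-0103 lowered 16 and raised 1 (9.03% and 6.73%) and MS-275 lowered 16 and raised 1 (10.2% and 7.66%), with medians of −0.31, −0.25 and −0.23. In alpha-TC1 the falls numbered 13, 5 and 12 (11.7%, 5.37% and 7.72%), with rises of 1, 0 and 0 (11.3%, 5.45% and 6.61%). These counts were lower without single replicates: CI-994 in alpha-TC1 went from 14 called to 9 without replicate 1 and 7 without replicate 2 and in beta-TC3 from 20 to 13 without replicate 3, MGCD-0103 in beta-TC3 from 17 to 7 without replicate 3, and MS-275 from 12 to between 3 and 6 in alpha-TC1 without any 1 replicate and from 17 to 5 and 7 in beta-TC3 without replicates 2 and 3. Orc1 under CI-994 read 3.89, 4.38 and 4.17 in beta-TC3 against 3.96 to 4.61, with overlap and no call (adjusted p = 0.212). Tk1 under CI-994 in beta-TC3 read 7.27, 7.22 and 7.08 at 6 h, below DMSO at 7.52 to 8.18, a change of −0.86 (adjusted p = 0.000228). At 24 h it read 5.88, 5.88 and 5.86 against 7.28 to 8.15 (median 7.99), a change of −2.08 ± 0.18 (adjusted p = 2.6e-16), and the 24 h change minus the 6 h change was −1.36 ± 0.24 (adjusted p = 1.26e-06). For MS-275 and MGCD-0103 it was −1.31 and −1.30 in that line.

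By 24 h the inhibitors had separated into those that still lowered the members and those that did not. In beta-TC3 ITF-2357 lowered 26 and raised 2 (19% and 21.3% of all genes, median −0.43), PXD101 lowered 26 and raised 4 (19.8% and 22.5%, −0.38), CRA-024781 lowered 22 and raised 3 (18.1% and 21.1%, −0.29) and apicidin lowered 20 and raised 4 (17.4% and 18.7%, −0.31). By contrast SAHA had 3 falls and 2 rises (6.32% and 7.36%, 0.09), LBH-589 no fall and 1 rise (2.39% and 3.92%, −0.06), HC-toxin 1 fall and no rise (0.754% and 1.45%, 0.02) and scriptaid neither (0.0254% and 0.0254%, −0.06, with 1 member at an unadjusted p under 0.05). Trichostatin A lowered 13 and raised 3 (15.4% and 15%) and pyroxamide 10 and 4 (12.8% and 14.2%). The anilides lowered 16 and raised 5 (CI-994, 16.4% and 17.3%, median −0.13), 15 and 5 (MS-275, 15.7% and 17.2%, −0.19) and 15 and 4 (MGCD-0103, 15.6% and 16%, −0.14). Without replicate 2 the calls under CRA-024781 went from 25 to 15 and under trichostatin A from 16 to 9, and those under pyroxamide went from 14 to 9 without replicate 3. The tests of the change from 6 to 24 h put 24 members higher and 3 lower under SAHA in beta-TC3 (22.2% of all genes differed), 22 and 1 under HC-toxin (21.3%), 17 and 1 under LBH-589 (18.9%), 16 and none under scriptaid (20.8%) and 19 and 4 under trichostatin A (28.8%). Pyroxamide had 17 higher and 2 lower (13.9%) and ITF-2357 15 and 7 (24.6%). For PXD101 7 were higher and 5 lower (17.5%). Apicidin had 9 and 2 (13.6%), CRA-024781 10 and 2 (18.3%), CI-994 6 and 2 (19.7%), MGCD-0103 2 and 2 (18.8%) and MS-275 none and 2 (18.1%). In alpha-TC1 trichostatin A ran the other way, with 1 higher and 11 lower (20.2%). The counts were none and 6 under CRA-024781 (14.6%), 1 and 5 under PXD101 (14.2%), 3 and 6 under ITF-2357 (19.8%) and 8 and 9 under pyroxamide (26.5%). The members' medians of this difference were −0.04, −0.01, −0.08 and 0.07. In this line the share of members that differed under CRA-024781, PXD101 and ITF-2357 was near that of all genes. There HC-toxin had 13 higher and 4 lower (22.9%), LBH-589 13 and 1 (17.9%), SAHA 11 and none (12.6%), scriptaid 7 and 3 (19.8%), apicidin 4 and 4 (13.2%), CI-994 15 and 1 (23.4%), MGCD-0103 12 and 1 (21.2%) and MS-275 10 and 2 (26.6%).

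Tk1 shows both courses. PXD101 in beta-TC3 gave 4.81, 4.66 and 4.67 at 24 h against DMSO at 7.28 to 8.15 (median 7.99), far below, a change of −3.22 ± 0.18 (adjusted p = 8.78e-26), or 9.29-fold lower. SAHA gave 7.65, 7.67 and 6.88, a change of −0.56 (adjusted p = 0.0237, −0.68 without replicate 1 and −0.46 without replicate 3, neither of which was called). HC-toxin gave 8.21, 8.31 and 8.19, just above the DMSO arrays (adjusted p = 0.71), after 5.92, 5.11 and 6.11 at 6 h. The 24 h change of Tk1 minus its 6 h change was 2.48 ± 0.24 under HC-toxin and 2.05 ± 0.24 under SAHA. Under SAHA it was 1.86 ± 0.29 for Rrm2, 1.47 for Rrm1 and 1.39 for Rfc5, while Orc1, which had been high at 6 h, fell back to 4.40, 4.30 and 4.34, within the DMSO range of 3.82 to 4.73.

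In alpha-TC1 at 24 h ITF-2357 lowered 24 members and raised 4 (20.3% and 25.9% of all genes, median −0.36), pyroxamide 23 and 4 (20.3% and 20.9%, −0.28), trichostatin A 22 and 5 (20.3% and 22.5%, −0.29) and PXD101 21 and 5 (19.7% and 21.4%, −0.30). CRA-024781 lowered 16 and raised 5 (19.1% and 21.1%) and apicidin 15 and 6 (18.5% and 19.2%), the latter 21 calls going to 13 without replicate 1. LBH-589 lowered 2 and raised 7 (7.55% and 7.49%), HC-toxin 3 and 8 (11.3% and 10.6%), SAHA 4 and 4 (11% and 9.75%) and scriptaid neither (0.229% and 0.195%, with 5 members at an unadjusted p under 0.05). Of the anilides, MGCD-0103 had 4 falls and 10 rises (16.1% and 16.1%), CI-994 4 and 10 (16.2% and 15.2%) and MS-275 8 and 7 (19.5% and 18.2%). These small counts moved with single replicates: without replicate 2 they were 5 calls for CI-994, 7 for MGCD-0103, 8 for MS-275 and 3 each for SAHA and LBH-589, without replicate 3 they were 9 for MGCD-0103, 1 for LBH-589 and 5 for HC-toxin, and without replicate 1 they were 17 for HC-toxin. Tk1 was still lower under each anilide (−1.42 to −1.10), and Prim2 was higher under each (0.62 to 0.71). CI-994 gave Prim2 levels of 8.93 and 8.94 against DMSO at 7.85 to 8.55 (median 8.23), both above.

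Some members changed in opposite or unequal ways in the lines at 24 h, and the difference itself was tested. Dut fell with 9 of 13 HDAC inhibitors in alpha-TC1, and in beta-TC3 it fell with 3 and rose with 4. PXD101 gave Dut levels of 9.03, 9.30 and 9.43 in alpha-TC1 against 10.28 to 10.79 (median 10.48), without overlap, 2.39-fold lower (SE 0.13 on the log2 scale, adjusted p = 1.33e-13). In beta-TC3 it gave 9.03, 8.67 and 8.84 against 9.04 to 9.65 (median 9.41), also below all, a change of −0.50 ± 0.09 (adjusted p = 2.79e-06). The change in alpha-TC1 minus that in beta-TC3 was −0.77 ± 0.16 under PXD101, −1.11 under ITF-2357, −1.29 under pyroxamide and −1.73 under trichostatin A. A further probe set for Dut gave −1.24 in alpha-TC1 but 0.12 in beta-TC3 under PXD101, so the direction in beta-TC3 depends on the probe set.

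Pold2 also fell with 9 inhibitors in alpha-TC1 and with none in beta-TC3. PXD101 gave 7.28, 7.86 and 7.72 against 7.99 to 8.73 (median 8.68) in alpha-TC1, all below, and 7.96, 8.03 and 8.0 against 7.61 to 8.34 (median 8.02) in beta-TC3, within the range. The difference between the lines was −0.88 ± 0.18 (adjusted p = 2.71e-05). Cdc45, Mcm10 and Gmnn went the other way. Cdc45 fell with 9 inhibitors in beta-TC3 and rose with 1 in alpha-TC1, Mcm10 fell with 9 against 1 fall and 3 rises, and Gmnn fell with 6 against 7 rises. Under PXD101 Cdc45 read 7.13, 7.75 and 7.48 in beta-TC3 against 7.92 to 8.43 (median 8.30), all below, a change of −0.81 ± 0.11. In alpha-TC1 it read 7.07, 7.47 and 7.61 against 6.97 to 7.84 (median 7.59), within the range (adjusted p = 0.293). The differences between the lines under PXD101 were 0.67 for Cdc45, 0.92 for Mcm10 and 0.70 for Gmnn.

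Over all members, trichostatin A differed most between the lines at 24 h, with 4 members higher and 19 lower in alpha-TC1 (28.7% of all genes differed, median −0.29). Rrm2 read 7.45, 7.74 and 7.88 in alpha-TC1 against DMSO at 8.99 to 10.21, all below, and 9.76, 8.50 and 8.68 in beta-TC3 against 8.11 to 9.56, with no call (adjusted p = 0.785). Pyroxamide had 2 higher and 12 lower (24.6%), ITF-2357 6 and 4 (27.3%) and CI-994 8 and 2 (16.1%). Under trichostatin A the difference was −1.98 ± 0.32 for Rrm2, −1.45 for Tk1 and −1.29 for Mcm7, and 1.03 for Orc1. At 6 h the differences under the same compound ran the other way, with 13 members higher and none lower in alpha-TC1 (16.6% of all genes), among them Tk1 by 0.88, Mcm2 by 0.80 and Gmnn by 0.51. Other compounds with at least 10 members that differed at 6 h were PXD101 (10 higher, none lower, 15.6% of all genes), CRA-024781 (10 and none, 14.3%), apicidin (9 and 1, 11.3%), BRD-A94377914 (9 and 1, 14.7%), pyroxamide (9 and 1, 18.8%) and BRD-K17311666 (15 and 1, 18.9%). Under pyroxamide the median difference was −0.01, and 0.18 with the array plate as a random block.

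Chaetocin raised replication genes by 24 h in both lines. At 6 h members fell and rose together, in beta-TC3 in numbers near the shares of all genes. At 24 h 23 members rose and 6 fell in alpha-TC1 (23.4% and 24.5% of all genes), with a median of 0.43 against 0.04 for all genes, and 23 rose and 1 fell in beta-TC3 (15.4% and 15.5%), with a median of 0.39 against −0.02. All arrays with chaetocin lay above every DMSO array for 15 and 19 members. Such a count was not made over all genes, so there is no share to set beside it. By array the members' median was 0.28 to 0.72 above DMSO in the 4 alpha-TC1 arrays and 0.33 to 0.38 in the 3 of beta-TC3, and against DMSO of the same batch only, 0.28 to 0.53 and 0.30 to 0.44.

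Cdc6 and Mcm10 rose most under chaetocin in alpha-TC1. Cdc6 read 9.85, 10.55, 10.30 and 9.35 in alpha-TC1 at 24 h against DMSO at 6.89 to 8.24 (median 7.61), without overlap, a rise of 2.26 ± 0.13 (adjusted p = 4.78e-25), or 4.80-fold. In beta-TC3 it read 9.15, 9.23 and 9.15 against 6.88 to 7.90 (median 7.47), again without overlap, 3.69-fold higher (adjusted p = 2.72e-19). Orc1 rose by 1.42 and 1.47, Cdt1 by 0.83 and Gmnn by 0.94 in alpha-TC1. Mcm10 read 8.48, 8.86, 8.66 and 7.90 in alpha-TC1 against 6.14 to 6.91 (median 6.38), 3.98-fold higher (adjusted p = 1.06e-28), and 7.6, 7.50 and 7.66 in beta-TC3 against 6.05 to 6.70 (median 6.36), all above in both lines. The helicase subunits Mcm2 to Mcm7 all rose in alpha-TC1, by 0.31 for Mcm5 to 1.01 for Mcm3. Rpa2 rose by 1.17 and 0.88, Rfc4 by 0.65 and 0.93, and Rrm2 by 0.83 and 1.18.

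The genes that fell under chaetocin at 24 h were fewer. Tk1 read 5.82, 6.21, 6.81 and 6.80 in alpha-TC1 at 24 h against 6.94 to 8.09 (median 7.73), all below, a change of −1.40 (adjusted p = 4.63e-09). In beta-TC3 it read 7.50, 7.67 and 7.39 against 7.28 to 8.15, within the range (adjusted p = 0.0539), and the difference between the lines was −0.97. Gins1 was the 1 member that fell in both lines, at 6.82, 7.02, 7.03 and 7.04 against 7.62 to 8.27 (median 7.95) in alpha-TC1 and 7.33, 7.63 and 7.35 against 7.75 to 8.19 (median 7.86) in beta-TC3, with changes of −0.95 and −0.43 (adjusted p = 9.64e-16 and 0.000802). In alpha-TC1 Lig1 changed by −0.85, Rfc5 by −0.72, Rfc2 by −0.51 and Dut by −0.40. Between the lines 3 members were higher and 7 lower in alpha-TC1 (27.1% of all genes differed), with Lig1 at −0.85 and Mcm10 at 0.76.

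At 6 h chaetocin had lowered 8 members and raised 10 in alpha-TC1 (16.9% and 15.8% of all genes, median 0.06) and lowered 6 and raised 5 in beta-TC3 (11.9% and 11.7%, median −0.04), the 11 calls in beta-TC3 going to 7 without replicate 1. Tk1 read 5.32, 5.40 and 5.79 in alpha-TC1 against 7.30 to 8.10 (median 7.77) and 5.68, 6.69 and 6.31 in beta-TC3 against 7.52 to 8.18 (median 7.90), below all DMSO arrays in both, with changes of −2.37 and −1.83. Cdc6 was already up by 1.12 in beta-TC3, at 8.69, 8.38 and 8.67 against 7.10 to 7.81 (median 7.75). From 6 to 24 h 19 members were higher and 4 lower in alpha-TC1 (29.7% of all genes differed) and 20 higher and none lower in beta-TC3 (17.4%). Markers of other cell types moved in alpha-TC1 with chaetocin. The mean level of the 8 markers measured was 3.72 to 3.99 at 6 h against 3.49 to 3.65 in DMSO, and 3.67 to 4.03 at 24 h against 3.41 to 3.67, where it had 2 of 8 above all DMSO arrays (the endothelial Pecam1 at 3.49 to 5.58 against 2.69 to 3.22 and the fibroblast Col1a1 at 3.22 to 3.76 against 2.98 to 3.22), 1 below and 5 overlapping. The marker below was the acinar Cela1, at 4.76 to 5.14 against 5.41 to 6.54. Both leukocyte markers overlapped DMSO at 24 h, Ptprc at 2.69 to 3.22 against 2.62 to 3.08 and Cd68 at 3.95 to 5.77 against 3.12 to 4.83. In beta-TC3 all 8 overlapped DMSO. The part of these markers in the result was not tested.

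**Figure D4:**
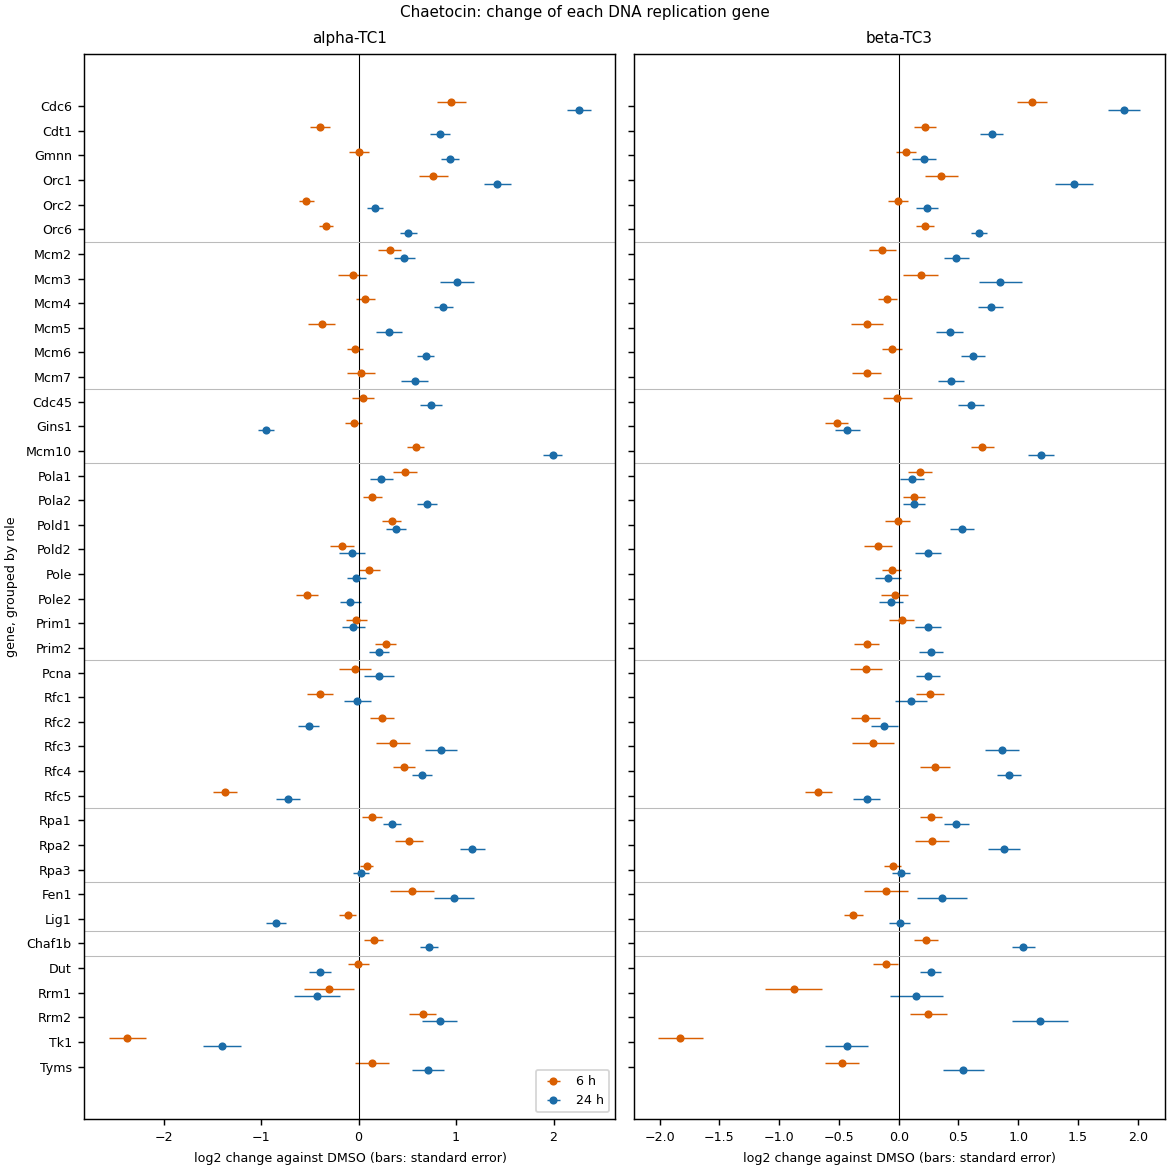
Log2 change of each member under chaetocin against DMSO, grouped by role, with 1 panel per line and 1 colour per time, 6 and 24 h. Cdc6, Mcm10 and Orc1 lie highest at 24 h in both lines, with Cdc6 at 2.26 in alpha-TC1, and Tk1 lies lowest at 6 h, at −2.37 and −1.83.

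With the inhibitors of DNA methylation, BIX-01294 and AMI-1, 0 to 12 members were called per line and time. 5-azadeoxycytidine, a cytidine analogue that is built into DNA, raised 7 members and lowered 1 in alpha-TC1 at 24 h (2.57% and 4.20% of all genes, median 0.15), with 4 calls left without replicate 2 and 3 without replicate 3. Orc1 rose by 0.83 (adjusted p = 7.65e-05), Mcm10 by 0.56, Mcm4 by 0.48 and Cdc45 by 0.42, all with every array above DMSO, and Cdc6 by 0.74 with overlap. In beta-TC3 it raised 2 and lowered 1 (3.34% and 5.05%). Zebuarine raised 4 members in beta-TC3 at 24 h (1.54% of all genes, none fell, where 1.82% of all genes did), Rrm2, Mcm10, Cdt1 and Orc6 by 0.34 to 0.85, and none in alpha-TC1, where 8 of the 40 had an unadjusted p under 0.05. Each of these 4 calls was lost without 1 or 2 of the replicates, with values of 0.61 to 0.91 for Rrm2, 0.34 for Mcm10 without replicate 1, 0.27 and 0.36 for Cdt1, and 0.33 and 0.31 for Orc6. BIX-01294 lowered 10 members and raised 2 in beta-TC3 at 6 h (5.73% and 5.30%), with Tk1 at −0.71 and Rrm1 at −0.79 among the falls. Without replicate 1, and likewise without replicate 3, 1 of these 12 calls was left. In alpha-TC1 it raised 5 and lowered none at 6 h (2.00% and 2.38% of all genes), among them Mcm4 by 0.55 and Gins1 by 0.39. At 24 h it lowered 3 in alpha-TC1 (0.881% of all genes fell and 0.720% rose), each with overlap, and 1 in beta-TC3 (0.339% and 0.864%). 5-azadeoxycytidine had raised 2 members in alpha-TC1 at 6 h (0.152% of all genes, with 0.110% lowered). With AMI-1 and RG-0108 limma called no member in either line at any time, and 0 to 3 of the 40 had an unadjusted p under 0.05.

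Of the code-named compounds, 5 gave the most calls among the members at 6 h. BRD-A94377914 lowered 29 and raised 3 in beta-TC3 (17.9% and 20.0% of all genes, median −0.59), BRD-K17311666 26 and 4 (19% and 18.6%, −0.57), BRD-K90919562 25 and 4 (17.8% and 20.0%, −0.50), BRD-K92415738 25 and 3 (17.6% and 19.2%, −0.42) and BRD-K22912318 25 and 3 (15.7% and 17.2%, −0.42). In alpha-TC1 the falls were 22, 16, 21, 18 and 21 and the rises 4, 5, 6, 4 and 4 (13.3%, 15.7%, 16.2%, 15.6% and 14.9% of all genes fell, and 15.7%, 19.9%, 19.7%, 18.6% and 19.5% rose). The 26 calls of BRD-A94377914 in alpha-TC1 went to 14 without replicate 2, and the 27 of BRD-K90919562 to 17 without replicate 3. By 24 h in beta-TC3 BRD-A94377914 had 11 falls and 4 rises (13% and 12.5%, 15 calls going to 9 without replicate 2), BRD-K17311666 6 and 3 (10.6% and 13.5%, 9 calls going to 5 without replicate 3), BRD-K22912318 6 and 1 (8.85% and 9.13%), BRD-K90919562 1 and 1 (3.13% and 6.45%) and BRD-K92415738 neither (3 members at an unadjusted p under 0.05). In alpha-TC1 at 24 h BRD-K22912318 lowered 10 and raised 4 (12.9% and 10.5%), BRD-K17311666 9 and 5 (15.3% and 14.1%), BRD-K90919562 4 and 5 (7.72% and 5.72%, 9 calls going to between 2 and 5 without any 1 replicate), BRD-A94377914 2 and none (4.55% and 3.40%) and BRD-K92415738 1 and none (0.322% and 0.212%). Between 6 and 24 h the change of 27 members differed under BRD-A94377914 in beta-TC3 (27.1% of all genes), of 27 under BRD-K90919562 (27.0%), of 23 under BRD-K92415738 (27.4%), of 21 under BRD-K17311666 (15.6%) and of 16 under BRD-K22912318 (12.8%), and in alpha-TC1 of 23 under BRD-K90919562 (23.7%). The 24 h change of Tk1 minus its 6 h change was 2.83 under BRD-K90919562 and 2.71 under BRD-K92415738 in beta-TC3.

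With BRD5298, BRD6929 and BRD9773 more members were called at 24 h than at 6 h in both lines, and in beta-TC3 so were more of all genes. At 6 h they gave 1 fall each in beta-TC3 (0.423%, 0.152% and 2.19% of all genes), BRD9773 gave 3 in alpha-TC1 (1.47%, with 1.16% of genes raised), and at 24 h they lowered 17, 14 and 10 members in beta-TC3 (12.3%, 12% and 9.19% of all genes) and raised 3, 2 and 1 (13.7%, 11.5% and 9.04%), the 11 calls of BRD9773 going to 5 without replicate 2. Tk1 under BRD5298 read 5.45, 5.48 and 5.91 at 24 h against 7.28 to 8.15 (median 7.99), far below, a change of −2.22 ± 0.18, and under BRD6929 it read 5.87, 5.88 and 5.88. The 24 h change minus the 6 h change was −1.97 under BRD5298, −1.74 under BRD6929 and −0.84 under BRD9773 (adjusted p = 8.75e-12, 2.64e-09 and 0.00739). Over all members that test in beta-TC3 put 2 higher and 8 lower at 24 h under BRD5298 (17.2% of all genes differed), 3 and 4 under BRD6929 (12.7%) and Tk1 alone under BRD9773 (14.1%). In alpha-TC1 it put 5 higher and 5 lower under BRD5298 (24.3%), 2 and 4 under BRD6929 (15.1%) and 6 and none under BRD9773 (16%). In alpha-TC1 BRD5298 lowered 10 and raised 5 at 24 h (17.0% and 15.4%), and its Orc1 arrays, at 4.97, 4.75 and 5.44, were above DMSO at 3.68 to 4.63. There BRD6929 lowered 6 and raised 4, near the shares of all genes (13.3% and 12.1%), and BRD9773 lowered 5 and raised 6 (8.70% and 10.8%, 11 calls going to 5 without replicate 2). BRD8451 lowered 1 member in beta-TC3 at 24 h (1.30% of all genes) and limma called none with BRD-K62233722 at 24 h, where 5 in alpha-TC1 and 9 in beta-TC3 had an unadjusted p under 0.05.

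At 10 µM, 4 pairs of compounds were compared directly at 24 h in each line, 8 comparisons in all, with p-values adjusted over all of them together and intervals of 1.96 SE on each side. Pyroxamide and ITF-2357, both hydroxamic acids, differed in 1 member in alpha-TC1 (4.40% of all genes), Rfc4 by 0.41 (interval 0.13 to 0.69), and in 15 in beta-TC3 (14 higher and 1 lower with pyroxamide, 15% of all genes). There Rrm2 was higher by 1.38 (0.79 to 1.98) and Tk1 by 1.03 (0.57 to 1.48) with pyroxamide. CI-994 bears an ortho-amino anilide in place of the hydroxamic acid. Against it, ITF-2357 had 22 members lower and 1 higher in alpha-TC1 (19% of all genes, median −0.56) and 14 lower and 1 higher in beta-TC3 (18.4%, −0.24), and pyroxamide had 16 lower and 1 higher in alpha-TC1 (14.3%, −0.40) and 2 lower in beta-TC3 (12.4%). In alpha-TC1, where CI-994 had 2 arrays, the difference from CI-994 in Rrm2 was −2.15 with ITF-2357 (interval −2.70 to −1.59) and −1.80 with pyroxamide (−2.36 to −1.24). In Tk1 in beta-TC3 it was −0.81 with ITF-2357. 5-azadeoxycytidine had 14 members higher than zebuarine in alpha-TC1 (8.0% of all genes), Rrm1 by 1.08 (0.47 to 1.69) and Rrm2 by 0.92 (0.46 to 1.39), and 2 lower in beta-TC3 (1.58%). These counts were sensitive to single replicates, with 5 to 9 members for pyroxamide against ITF-2357 and 4 to 5 for ITF-2357 against CI-994 in beta-TC3, 9 to 16 and 6 to 12 for ITF-2357 and pyroxamide against CI-994 in alpha-TC1, and 3 to 13 for the cytidine analogues in alpha-TC1. The call of Rfc4 between pyroxamide and ITF-2357 in alpha-TC1 was lost without replicate 2 and without replicate 3. In beta-TC3 1 of the 2 members for pyroxamide against CI-994 was left without any 1 replicate, and none for the cytidine analogues without replicate 1 or without replicate 3. CI-994 in alpha-TC1, like SAHA there at 24 h, was left with 1 array where a replicate was left out, which was then assumed to vary like the other groups.

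Further genes of the same pathway were taken from a pair of lists. Of 16 measured genes of the G1 to S transition, apicidin in beta-TC3 at 6 h lowered 10 and raised 3 (17.3% and 18.7% of all genes, median −0.57). Rbl1, a relative of the retinoblastoma protein, fell by 1.25, Ccna2, the S phase cyclin A2, changed by −1.19, and Dbf4, the activator of the Cdc7 kinase, by −1.11, while Cdk2 rose by 0.73 and Rb1 by 0.54. Of 20 other replication genes it lowered 10 and raised 5 (median −0.25), with Timeless, of the fork protection complex, at −1.85 and the nuclease Dna2 at −1.47. ITF-2357 in alpha-TC1 at 6 h lowered 7 and raised 4 of the first list and lowered 7 and raised 5 of the other (17.4% and 20.3% of all genes). PXD101 in beta-TC3 at 24 h lowered 9 and raised 4 of each (19.8% and 22.5% of all genes), with Ccna2 at −2.15 and Dbf4 at −1.57. Under chaetocin at 24 h the first list had 1 fall and 11 rises in alpha-TC1 (24.5% and 23.4% of all genes) and 7 rises in beta-TC3 (15.4% of all genes rose and 15.5% fell), with Ccne2, cyclin E2, up by 1.46 and 1.06 and the E2F family member E2f8 up by 1.15 and 0.67. The other list had 3 falls and 9 rises, and 2 and 9, with the helicase Recql4 up by 1.44 and 0.70 and Pole3, a small subunit of polymerase epsilon, at −0.91 and −0.50.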

How the data were processed

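For every array the deposited table holds an intensity for each probe set, on a linear scale. The authors used RMA, as the submitters' processing notes name it. Its version and any later correction are not given in the sources used here. Per the labels, cells were plated 24 h before the compounds, and total RNA was hybridised to Affymetrix HT arrays. Because log2 values had been assumed when the tests were designed, the intensities were log2 transformed first.

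Of 22716 probe sets, 18003 carried 1 gene symbol and were kept, 287 with several and 4426 with none were left out, and for each of 11807 genes the probe set of highest mean stood for the gene. Of the members 18 had more than 1 probe set.

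limma 3.58.1 in R 4.3.3 was run for each line and time separately, on all arrays there, with the 7 batches of the labels as a fixed term. Differences between lines and times were interaction contrasts in joint fits, and pairs of compounds at 10 µM were contrasts adjusted over all pairs, lines and genes. All others used the Benjamini-Hochberg adjustment per comparison, over every gene. The scripts were tested on simulated data. Tables and figures were made with Python 3.11.15 (pandas 2.3.3, numpy 2.4.6, matplotlib 3.10.9).

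The members, the lists and the pairs were chosen with earlier results of these data known. All members were counted by role. Full values went to members with the largest called changes without overlap per class and time and to those that moved the other way, and up to 4 called genes came from each further list. For length the text shows a part of these, picked with the values known, and gives some members with overlap. The alternatives left out the batch term, a replicate number or other groups, left out genes of low level, added a quantile normalization, centred the arrays, or changed the offset, the probe sets or the threshold. A replicate number was left out of all compounds at once, with the DMSO arrays kept.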

Additional observations from a re-analysis of the deposited data

Results flagged for a closer look

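Arrays that stood apart were looked for only in groups of 4 to 10 arrays. These were chaetocin in alpha-TC1 at 24 h, with 4 arrays, and DMSO of beta-TC3 at 6 h, with 10. Each member and the members' median in both groups gave 82 sets of values. In each set the lowest or highest array was compared with the rest. In 6 sets an array stood apart, and chance alone does this in about 1 in 20 sets. The sets of a group share its arrays, and groups of other sizes were not checked. With chaetocin in alpha-TC1 at 24 h, replicate 1 was the lowest of 4 for Gins1 at 6.82 (others 7.02 to 7.04), Pold2 at 8.15 (8.81 to 8.86) and Fen1 at 8.01 (9.02 to 9.08), and replicate 2 was the lowest for Orc2 at 8.67 (8.97 to 9.03). In DMSO of beta-TC3 at 6 h, 1 of 10 arrays was at 6.82 for Orc2 (others 7.05 to 7.31) and 1 at 7.81 for Pole2 (8.16 to 8.39).

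The change against DMSO differed between the lines at 6 h, by interaction contrasts in limma, in 10 members each under apicidin (11.3% of all genes differed), BRD-A94377914 (14.7%), CRA-024781 (14.3%), PXD101 (15.6%) and pyroxamide (18.8%), in 13 under trichostatin A (16.6%) and in 16 under BRD-K17311666 (18.9%). At 24 h it differed in 10 of the 40 each under chaetocin (27.1% of all genes), ITF-2357 (27.3%) and CI-994 (16.1%), in 14 under pyroxamide (24.6%) and in 23 under trichostatin A (28.7%). For chaetocin and ITF-2357 the share among the members was no larger than among all genes.

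Between 6 and 24 h the change against DMSO differed in alpha-TC1 in 23 members each under BRD-K90919562 (23.7% of all genes) and chaetocin (29.7%), 17 each under HC-toxin (22.9%) and pyroxamide (26.5%) and 16 under CI-994 (23.4%). In beta-TC3 it differed in 27 each under BRD-A94377914 (27.1%), BRD-K90919562 (27.0%) and SAHA (22.2%), 23 each under BRD-K92415738 (27.4%), HC-toxin (21.3%) and trichostatin A (28.8%), 22 under ITF-2357 (24.6%), 21 under BRD-K17311666 (15.6%), 20 under chaetocin (17.4%), 19 under pyroxamide (13.9%), 18 under LBH-589 (18.9%) and 16 each under BRD-K22912318 (12.8%) and scriptaid (20.8%).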

How the results depend on the processing

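Of 158 medians of the members, 12 moved by more than the spread between arrays under some setting. The sign turned under some setting in 21, none of them over 0.08 in size as reported, among them AMI-1 in beta-TC3 at 24 h and the line difference under pyroxamide at 6 h. With the array plate as a random block the lowest median at 1 h in beta-TC3 was −0.10, the line difference under pyroxamide at 6 h 0.18 and the change over time under BRD-A94377914 in beta-TC3 0.40. With 1 replicate number left out, the medians in beta-TC3 ran from −0.26 to −0.17 (lowest at 1 h), at 6 h from −0.70 to −0.47 (BRD-K17311666), −0.59 to −0.38 (HC-toxin), −0.62 to −0.49 (ITF-2357), −0.63 to −0.46 (SAHA) and −0.65 to −0.50 (trichostatin A), and at 24 h from −0.12 to 0.041 (AMI-1), −0.16 to −0.002 (BRD-K22912318) and 0.09 to 0.24 (zebuarine), and from −0.24 to −0.049 for BRD-K92415738 in alpha-TC1. With the mean of all probe sets, 3 named genes in beta-TC3 at 6 h changed sign, namely Orc2 (−0.09) and Dut (0.045) under BRD-A94377914 and Orc2 (−0.04) under BRD-K22912318. Of 1579 results for single genes, 631 lost their call under at least 1 setting.

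Counts of members called moved by over 1.5 times in 49 of 114 results, beside the replicates named in the report. Without the batch term they went, against DMSO, from 12 to 3 (BIX-01294) and 17 to 10 (MS-275) in beta-TC3 at 6 h, and from 11 to 5 (HC-toxin), 9 to 4 (LBH-589) and 9 to 5 (BRD-K90919562) in alpha-TC1 at 24 h. The line differences at 6 h went from 13 to 7 (trichostatin A), 10 to 6 (CRA-024781), 10 to 5 (apicidin) and 10 to 3 (PXD101), and the time differences from 17 to 11 for pyroxamide in alpha-TC1 and in beta-TC3 from 21 to 13 (BRD-K17311666), 18 to 11 (LBH-589), 19 to 8 (pyroxamide) and 16 to 10 (scriptaid). With the plate block the counts in alpha-TC1 went from 14 to 23 (CI-994 at 6 h), 11 to 22 (HC-toxin at 24 h) and 8 to 13 (SAHA at 24 h), and the time difference under pyroxamide from 17 to 10. At an adjusted p under 0.01, 24 counts moved. Against DMSO they went in alpha-TC1 from 22 to 11 for trichostatin A and 12 to 4 for MS-275 at 6 h, and from 8 to 5 (5-azadeoxycytidine), 9 to 3 (BRD-K90919562), 11 to 4 (HC-toxin) and 9 to 3 (LBH-589) at 24 h, and in beta-TC3 at 6 h from 12 to 5 (BIX-01294), 11 to 7 (chaetocin) and 17 to 10 (MS-275). The line differences went from 10 to 4 (apicidin), 16 to 8 (BRD-K17311666), 10 to 5 (CRA-024781), 10 to 3 (PXD101) and 13 to 6 (trichostatin A) at 6 h and from 10 to 5 (CI-994) and 14 to 8 (pyroxamide) at 24 h, and the time difference under pyroxamide from 17 to 10 in alpha-TC1 and 19 to 12 in beta-TC3. Among the pairs, at that threshold, pyroxamide against ITF-2357 went from 1 to 0 in alpha-TC1 and 15 to 9 in beta-TC3, 5-azadeoxycytidine against zebuarine from 14 to 7 and 2 to 0, and in beta-TC3 pyroxamide and ITF-2357 against CI-994 from 2 to 1 and 15 to 6. Without the batch term the pyroxamide and ITF-2357 pair gave 0 and 9, and the cytidine analogues 6 and 1. With the plate block the cytidine analogues gave 9 in alpha-TC1, and in beta-TC3 pyroxamide gave 23 against ITF-2357 and 4 against CI-994. That last pair gave 1 with centred arrays, and pyroxamide against ITF-2357 in alpha-TC1 gave 2 with the mean of all probe sets. On only the arrays compared, trichostatin A and MS-275 in alpha-TC1 at 6 h gave 14 and 6, and BRD9773 in beta-TC3 at 24 h went from 11 to 6. Centring the arrays moved the line difference of BRD-K17311666 from 16 to 9. Leaving out replicate 4 of chaetocin in alpha-TC1 at 24 h, an alternative chosen after seeing the data, left 29 members called and a median of 0.42. The causes were not tested.

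Replicate numbers are shared between compounds only. Over 22 pairs of same-numbered groups the correlations of deviations ran from −0.51 to 0.31, 5 of them over 0.1, so the numbers were not taken to pair arrays. With a replicate block among the compounds, pyroxamide against ITF-2357 went from 1 to 0 members in alpha-TC1 and from 15 to 9 in beta-TC3, ITF-2357 against CI-994 in beta-TC3 from 15 to 9, and 5-azadeoxycytidine against zebuarine from 14 to 7 and 2 to 1. The number of arrays limits precision.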
